A study of Mus musculus with 4 samples.

Results

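The genes described here encode the stress sensors of the endoplasmic reticulum (ER), the transcription factors they release and the proteases that cut those factors free. They are 10 genes chosen by name, Xbp1, Ern1, Atf6, Atf6b, Eif2ak3, Creb3, Creb3l2, Mbtps1, Mbtps2 and Nfe2l1, out of 21900 protein-coding mouse genes, and all rows of the deposited peak table that name one of them as the nearest gene were taken. These are 10 of 4890 listed intervals (0.204%), and they cover 10846 bp (0.473% of the length of all intervals). The table comes from chromatin immunoprecipitation and sequencing (ChIP-seq) with an antibody against XBP1s, the spliced and active form of XBP1, in natural killer (NK) cells from mouse spleen. The study deposited 2 XBP1s immunoprecipitations and 2 inputs, each input being 2% of the sheared chromatin. Per the labels, the cells of all 4 libraries were C57BL/6 NK cells, and the design text gives the animals as Il15Tg Xbp1 f/f, so all carried an Il15 transgene and a loxP-flanked Xbp1 gene. The labels name no Cre, and no source used here gives the promoter of the transgene. All cells had been given IL-15, a cytokine that NK cells need, at 50 ng/ml over 1 h, and no untreated group was analysed here.

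In the unfolded protein response, stress in the ER is read by membrane proteins of separate branches. IRE1, encoded by Ern1, is a kinase and RNase that removes an intron from Xbp1 mRNA, which then encodes XBP1s. PERK, encoded by Eif2ak3, phosphorylates the translation factor eIF2alpha and lowers protein synthesis while favouring translation of ATF4. ATF6 and its relatives ATF6B, CREB3 and CREB3L2 sit in the ER membrane as inactive precursors, travel to the Golgi and are cut there by the site-1 protease (Mbtps1) and then the site-2 protease (Mbtps2), which frees a bZIP transcription factor. NFE2L1 is also anchored in the ER membrane, is released by a different protease, and is known for raising proteasome gene transcription. XBP1s is best known for driving genes of ER folding, degradation and secretion.

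XBP1s intervals lay at the start of most of these genes. Of the 10 genes, 7 had a near interval, meaning one that the authors assigned to the gene with its centre within 5000 bp of the transcription start site (TSS), compared with 15.9% of all protein-coding genes (3487 of 21900). Each of the 7 had exactly 1 near interval. A further 3 intervals lay farther away, at Xbp1, Eif2ak3 and Creb3l2. Ern1, Creb3 and Mbtps2 were the nearest gene of no interval. The score that the authors deposited is 0 for every interval, so width is the only size the table holds. Width is not signal, and the list holds no value of any single library, so none of the values below has a replicate error and no difference between genes was tested.

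The near intervals were wide. Their widths were 2414 bp at Creb3l2, 2296 bp at Xbp1, 1469 bp at Atf6, 1430 bp at Eif2ak3, 1037 bp at Nfe2l1, 784 bp at Atf6b and 268 bp at Mbtps1. The median was 1430 bp over the 7 genes, against 410 bp over all 3487 genes with a near interval (interquartile range 281 to 625 bp), counting the widest interval of each gene. Of the 7, 6 were above that median and 5 were among the widest 10% of genes, a group that by construction holds 10.0% of genes and starts at 937 bp. Creb3l2 ranked 8 and Xbp1 ranked 11 of the 3487 genes. Atf6 ranked 80, Eif2ak3 ranked 97, Nfe2l1 ranked 258 and Atf6b ranked 513. Mbtps1 ranked 2712 and was wider than only 22.0% of the genes. The 7 widths thus ran from 268 bp at the protease gene Mbtps1 to 2414 bp at Creb3l2.

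**Figure D1:**
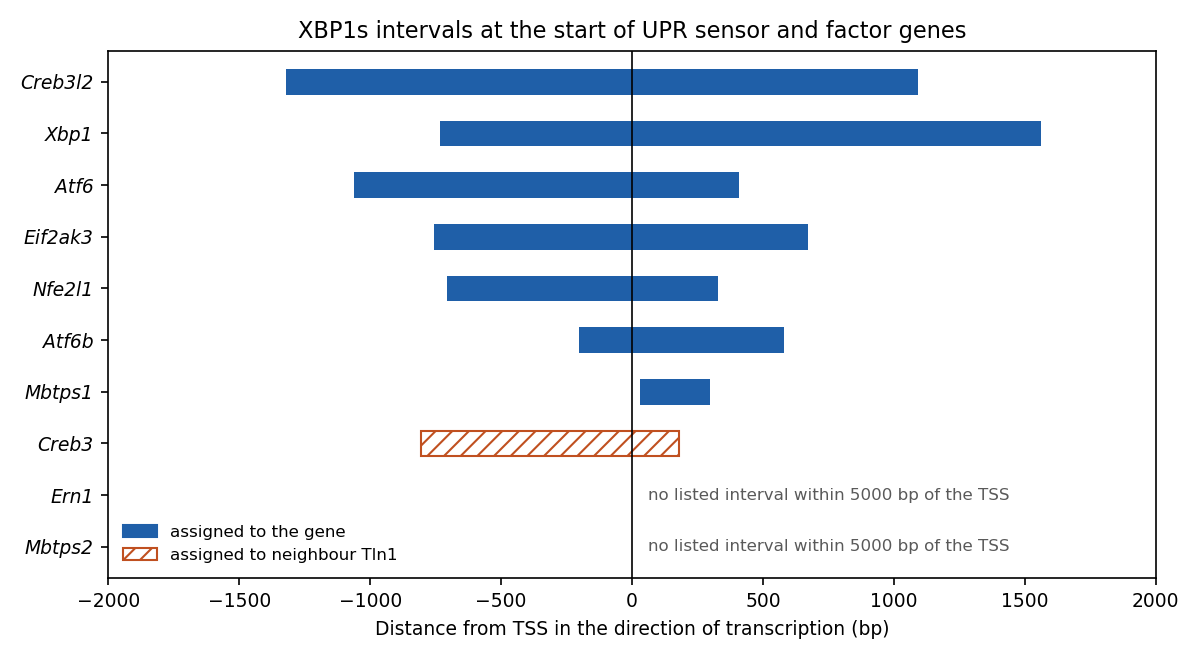
Listed XBP1s intervals within 5000 bp of the TSS of the 10 genes, drawn to scale along the direction of transcription (x axis, bp from the TSS). Filled bars are assigned to the gene itself and the hatched bar is assigned to Tln1, the neighbour of Creb3. The bars of 6 of the 7 genes with an assigned interval cross the TSS, and the bar of Mbtps1 starts 30 bp past it.

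The transcription factor that was immunoprecipitated has an interval at its own gene. The near interval of Xbp1 covers chr11:5519907-5522202 (mm10) and was annotated to exon 1 of 6. It reaches from 734 bp upstream to 1561 bp downstream of the TSS and so extends farther into the gene than upstream of it. The gene itself spans 5353 bp. The locus is the one that carries the loxP-flanked allele in these animals, and the positions are those of the reference genome. The promoter of Xbp1 is shown because it belongs to the factor that was precipitated. It runs from 250 bases before to 49 bases after the TSS base, from RefSeq on GRCm38.p6, and all of its 300 bases lie inside the interval. Here and in the promoters that follow, capitals mark every ACGT, the core that bZIP factors such as XBP1 and ATF6 contact, and every CCACG and CCAAT on either strand, which are the ends of the ER stress response element (ERSE).
Xbp1 (chr11:5520391-5520690, plus strand): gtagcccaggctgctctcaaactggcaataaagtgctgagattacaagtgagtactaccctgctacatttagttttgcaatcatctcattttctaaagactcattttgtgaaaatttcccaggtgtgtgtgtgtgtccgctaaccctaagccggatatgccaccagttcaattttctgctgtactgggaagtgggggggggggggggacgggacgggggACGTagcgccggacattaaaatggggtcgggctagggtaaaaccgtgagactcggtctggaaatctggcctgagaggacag
It holds 1 ACGT, which starts 31 bp upstream of the TSS, and no CCACG or CCAAT.

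Creb3l2, which encodes a bZIP factor known for raising secretory capacity in cartilage, had the widest near interval of the group, chr6:37441056-37443469, annotated as promoter. It reaches from 1321 bp upstream to 1092 bp downstream of the TSS and also covers an end of the noncoding gene Gm33318. Nfe2l1 had an interval of 1037 bp at chr11:96829638-96830674, from 706 bp upstream to 330 bp downstream. Both promoters lie wholly inside their intervals and are shown because they hold ACGT in different settings.
Creb3l2 (chr6:37442099-37442398, minus strand): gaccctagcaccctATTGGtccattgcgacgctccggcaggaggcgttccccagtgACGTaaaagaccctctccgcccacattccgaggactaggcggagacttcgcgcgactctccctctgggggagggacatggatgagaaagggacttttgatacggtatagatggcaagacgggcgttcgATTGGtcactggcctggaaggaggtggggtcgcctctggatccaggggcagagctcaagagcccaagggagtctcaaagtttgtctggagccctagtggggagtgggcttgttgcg
Nfe2l1 (chr11:96829919-96830218, minus strand): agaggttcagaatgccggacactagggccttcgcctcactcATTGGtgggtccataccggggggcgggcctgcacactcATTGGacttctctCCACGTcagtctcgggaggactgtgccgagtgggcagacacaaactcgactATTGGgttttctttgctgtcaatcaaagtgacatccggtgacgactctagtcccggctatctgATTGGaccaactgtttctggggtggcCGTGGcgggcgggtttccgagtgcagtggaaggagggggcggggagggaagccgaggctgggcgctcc
In the Creb3l2 promoter the ACGT overlaps a TGACG and starts 194 bp upstream of the TSS. In the Nfe2l1 promoter the ACGT starts 156 bp upstream, inside a full match to TGACGTGG, the 8-base element to which XBP1 is known to bind, read on the opposite strand as CCACGTCA. The Nfe2l1 promoter was the only one of the 9 searched that held this element, which is present in 0.676% of all 32851 promoter windows in the table (222 windows) and in 1.99% of the 3569 windows that overlap a listed interval (71 windows). It also holds 4 CCAAT boxes.

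Among the sensors, both ATF6 genes and the PERK gene had near intervals. Atf6 had an interval of 1469 bp at chr1:170867363-170868831, annotated as promoter and centred 326 bp upstream of the TSS by the authors' distance. It also covers an end of the noncoding gene Gm9929. Atf6b, which encodes the ATF6 paralog, had a narrower interval of 784 bp at chr17:34646945-34647728, from 201 bp upstream to 582 bp downstream of the TSS. The authors annotated it to the transcription end of another gene. That gene is Fkbpl, whose end lies 128 bp outside the interval. Eif2ak3 had an interval of 1430 bp at chr6:70843757-70845186, which reaches 758 bp upstream and 671 bp downstream. Of all 7 near intervals it was the one centred closest to the TSS, 44 bp upstream. The promoters of Atf6b and Eif2ak3 are given because they differ in content. Of the Atf6b promoter 251 bases lie inside its interval, and of the Eif2ak3 promoter all 300.
Atf6b (chr17:34646896-34647195, plus strand): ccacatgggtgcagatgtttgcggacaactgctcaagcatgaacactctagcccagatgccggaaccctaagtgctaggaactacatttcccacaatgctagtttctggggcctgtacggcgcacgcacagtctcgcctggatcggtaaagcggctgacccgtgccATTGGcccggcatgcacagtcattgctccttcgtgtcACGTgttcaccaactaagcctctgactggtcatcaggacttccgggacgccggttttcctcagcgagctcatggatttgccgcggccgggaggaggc
Eif2ak3 (chr6:70844265-70844564, plus strand): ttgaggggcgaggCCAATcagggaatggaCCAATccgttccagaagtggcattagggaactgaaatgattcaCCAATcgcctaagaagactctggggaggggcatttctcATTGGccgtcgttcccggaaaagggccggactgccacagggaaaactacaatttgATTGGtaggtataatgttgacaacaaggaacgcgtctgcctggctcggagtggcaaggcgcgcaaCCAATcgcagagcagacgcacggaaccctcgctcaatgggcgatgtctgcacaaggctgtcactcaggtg
The Atf6b promoter holds 1 ACGT, starting 47 bp upstream of the TSS, and 1 CCAAT box 84 bp upstream. The Eif2ak3 promoter holds no ACGT and no CCACG, but 6 CCAAT boxes between 237 and 20 bp upstream.

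Ern1, the source of the RNase that makes XBP1s, had no listed interval. The gene spans chr11:106397620-106487796 (90177 bp), and no interval overlaps it. The nearest one to its TSS lies 48117 bp upstream. Beyond the other end of the gene, the nearest is an interval of 237 bp at a distance of 9577 bp. The promoter of Ern1 is shown for contrast with those under intervals.
Ern1 (chr11:106487747-106488046, minus strand): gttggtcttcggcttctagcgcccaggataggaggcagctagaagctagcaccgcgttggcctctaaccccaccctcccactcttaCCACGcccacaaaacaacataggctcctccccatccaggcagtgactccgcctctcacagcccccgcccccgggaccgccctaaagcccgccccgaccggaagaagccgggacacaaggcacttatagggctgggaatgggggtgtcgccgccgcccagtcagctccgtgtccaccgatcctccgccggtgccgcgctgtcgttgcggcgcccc
It holds 1 CCACG, 164 bp upstream of the TSS, and no ACGT or CCAAT. No source used here gives the depth of the libraries or the threshold of the peak calls, so the lack of a listed interval does not show that XBP1s was absent.

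Of the protease genes, Mbtps1 had 1 interval of 268 bp at chr8:119558464-119558731, annotated to intron 1 of 23 and, in the detailed annotation, to a CpG island. It lies from 30 to 297 bp downstream of the TSS and is the only one of the 7 near intervals that does not cover the TSS. Mbtps2 lies on chromosome X, which holds 72 of the 4890 intervals, and the nearest of these is 5255664 bp from its TSS.

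Creb3, which encodes a bZIP factor of the same family as Creb3l2, counted as having no interval only by assignment. An interval of 987 bp at chr4:43561852-43562838 covers its TSS, from 806 bp upstream to 180 bp downstream. The authors assigned it to Tln1, which encodes the integrin adaptor talin. It is centred 238 bp downstream of the Tln1 TSS, which lies inside the same interval. Their annotation is promoter of the transcript NM_013497. That transcript need not belong to the assigned gene, as the annotation at Atf6b shows. The interval cannot be credited to one gene or the other. When any interval within 1000 bp of either RefSeq end of a gene was counted, 8 of the 10 genes had one, Creb3 included, compared with 17.5% of protein-coding genes (3825 of 21900). The Creb3 promoter, all 300 bases of which lie in the interval, is shown because it holds the most ACGT of the 9.
Creb3 (chr4:43562408-43562707, plus strand): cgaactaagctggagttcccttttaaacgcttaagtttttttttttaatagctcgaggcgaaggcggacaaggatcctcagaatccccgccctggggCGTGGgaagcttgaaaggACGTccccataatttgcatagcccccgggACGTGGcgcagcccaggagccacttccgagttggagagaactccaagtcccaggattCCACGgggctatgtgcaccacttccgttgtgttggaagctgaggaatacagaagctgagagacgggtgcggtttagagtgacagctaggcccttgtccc
It has 2 ACGT, starting 135 and 106 bp upstream of the Creb3 TSS. The one at 106 bp is part of GACGTG, the inner 6 bases of the XBP1 element above. There are 3 CCACG, of which 1 overlaps that GACGTG.

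Atf6 had no promoter window and was not searched. Of the 5 windows of Nfe2l1, only 1, at the TSS the authors used, was searched. Across the 9 genes with a promoter in the table, ACGT was found in 5 (55.6%), compared with 30.9% of all 32851 windows and 55.2% of the 3569 windows that overlap a listed interval. All 5 are promoters of which at least 150 bases lie inside an interval, and there are 6 such promoters. The other one of the 6 was Eif2ak3. None of the remaining 3 promoters, of Ern1, Mbtps1 and Mbtps2, held the core. GACGTG was found in 2 promoters (22.2%), Creb3 and Nfe2l1, compared with 6.38% of all windows and 15.6% of windows with an interval. CCAAT was found in 4 (44.4%), compared with 37.4% and 40.1%, and CCACG in 4 (44.4%), compared with 32.8% and 57.7%. TGACG was found in 3 (33.3%), compared with 20.8% and 47.6%. No promoter held the whole ERSE, in which CCAAT is followed, after a spacer of 9 bases, by the CCACG part, and which 0.119% of all windows and 0.42% of windows with an interval hold. None held the related ERSE-II, in which ATTGG precedes the same part by 1 base (0.0365% and 0.196%). The cyclic AMP response element TGACGTCA (1.79% and 5.94%) and the ATF6-type motif GATGACG (2.0% and 6.33%) were also in none. All motifs were searched on both strands, and several overlap: ACGT is part of the 6-base and of both 8-base motifs, TGACG opens both 8-base motifs and ends GATGACG, and CCACG is contained in the 8-base XBP1 element on the other strand. Of the 7 promoters that overlap an interval, 5 held ACGT, to be read beside the 55.2% of all such windows. Of the same 7, 4 held CCAAT (beside 40.1%) and 3 held CCACG (beside 57.7%). TGACG was in 3 of them (beside 47.6%) and GACGTG in 2 (beside 15.6%). The median GC content was 58.0% in the 9 promoters, 62.7% in windows that overlap an interval and 52.7% in all windows, and the part of base composition in these shares was not tested.

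**Figure D2:**
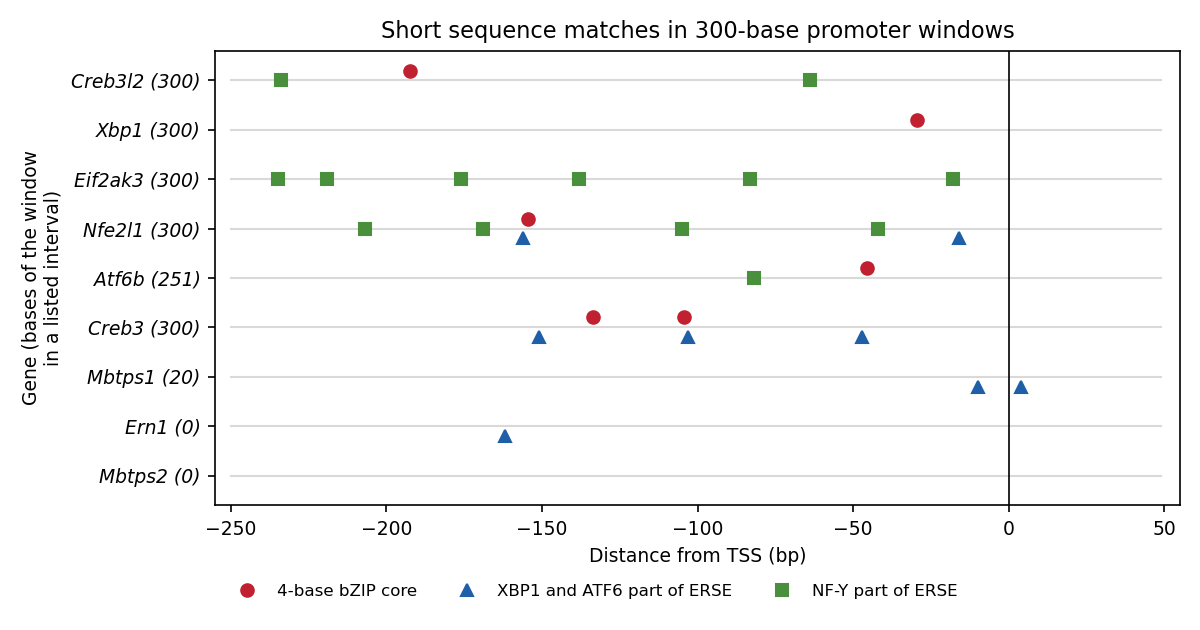
Positions of ACGT (circles, labelled 4-base bZIP core), CCACG (triangles) and CCAAT (squares) on either strand in the 300-base promoter windows of 9 genes, in bp from the TSS. The number after each gene is how many of the 300 bases lie inside a listed interval. Circles appear in 5 of the 6 promoters with at least 251 bases inside and in none of the 3 below them.

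A distal interval, more than 5000 bp from the TSS, was assigned to 3 of the 10 genes, compared with 2.63% of all protein-coding genes (576). The 3 genes also have a near interval, and among all genes with a near interval 4.96% (173 of 3487) have a distal one as well. Among the 350 genes with the widest near intervals the share was 6.29% (22 genes). Of the 55 relatives and partners compared below, 7 had a distal interval. At Xbp1 the distal interval is 490 bp wide (chr11:5505926-5506415) and centred 14471 bp upstream of the TSS, with a gap of 13491 bp to the near interval. An end of the noncoding gene Gm11963 lies inside it. At Eif2ak3 it is 399 bp wide (chr6:70831018-70831416), centred 13298 bp upstream. At Creb3l2 it is 259 bp wide (chr6:37463853-37464111), centred 21834 bp upstream. The median width of all 885 distal intervals was 309 bp, so those of Xbp1 and Eif2ak3 are above it and that of Creb3l2 is below it. All 3 lie upstream, as do 45.5% of all distal intervals, and HOMER labels all 3 intergenic, as it does 56.4% of all distal intervals. The detailed annotation places that of Xbp1 in an ID4 element, a SINE repeat, and that of Creb3l2 in an Lx8 element, a LINE repeat. Of all distal intervals 10.7% (95) are annotated to a repeat. The assignment to the nearest gene is by distance only.

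**Figure D3:**
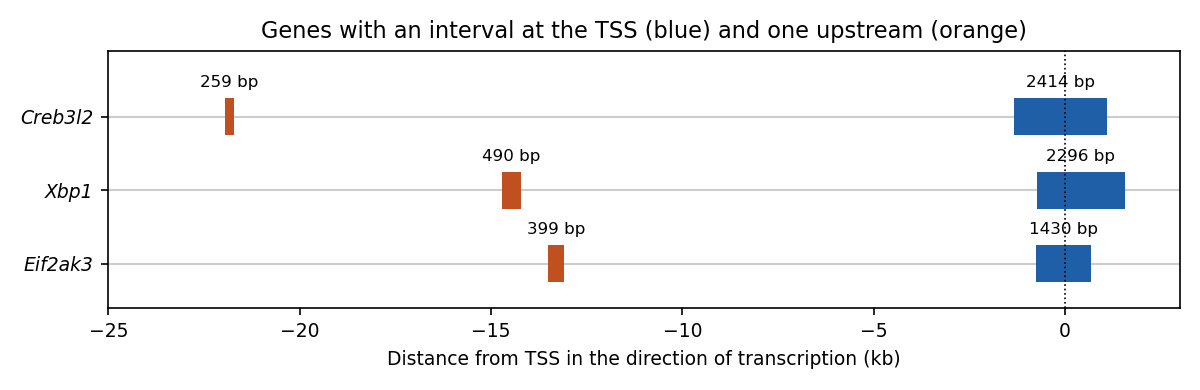
The near (blue) and distal (orange) intervals of Creb3l2, Xbp1 and Eif2ak3, drawn to scale in kb from the TSS along the direction of transcription, with widths in bp above them. In each gene the distal interval, 259 to 490 bp, is narrower than the near one, 1430 to 2414 bp.

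The near intervals did not share 1 position relative to the TSS. Their centres lie upstream at Atf6, Nfe2l1, Creb3l2 and Eif2ak3 (326, 188, 114 and 44 bp) and downstream at Mbtps1, Atf6b and Xbp1 (164, 190 and 413 bp). The median was 44 bp upstream for the 7, compared with 49 bp downstream for all 4005 near intervals, of which 39.9% are centred upstream. HOMER annotated 4 of the 7 as promoter, 1 as exon, 1 as intron and 1 as a transcription end, and 64.2% of all near intervals as promoter. For the 6 of these genes in the promoter table, the TSS that follows from the authors' distance and the TSS there differed by at most 0.5 bp.

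Relatives and partners of the 10 genes, 55 genes in 9 groups chosen by role, were compared in the same way. The lists were made with earlier results of these data known, so the shares describe them and are no test. In all 35 had a near interval (63.6%, compared with 15.9% of protein-coding genes), with a median width of 554 bp. Relatives of IRE1, of CREB3 and of PERK had none by the authors' distances: Ern2, the epithelial paralog of Ern1, the 3 further CREB3 family genes Creb3l1, Creb3l3 and Creb3l4, and the 3 other eIF2alpha kinase genes Eif2ak1, Eif2ak2 and Eif2ak4. Of 6 genes linked to the ligation of Xbp1 mRNA after IRE1 has cut it, 2 had near intervals. They were the ligase cofactor gene Zbtb8os (497 bp) and Rtraf (203 bp). Rtcb, which encodes the ligase itself, had none.

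Of 10 regulators and partners of IRE1, 9 had a near interval, with a median of 1359 bp. The widest were at Hspa5, which encodes the chaperone BiP (2365 bp), Pdia6, a disulfide isomerase that limits the duration of IRE1 signalling (2024 bp), Sec61a1 of the translocon (1395 bp), the ubiquitin ligase gene Syvn1 (1378 bp) and Dnajb9, a co-chaperone that represses IRE1 (1359 bp). Narrower ones lay at Traf2, the adaptor that IRE1 recruits (644 bp), Tmbim6 (599 bp), Os9 (427 bp) and Sel1l, the partner of the ligase (285 bp). The kinase gene Map3k5 had none. In the PERK branch 6 of 7 genes had one, with a median of 880 bp. They were Atf4, the factor whose translation PERK favours (1733 bp), Dnajc3, an inhibitor of PERK (1103 bp), Ppp1r15b (985 bp) and Ppp1r15a (487 bp), subunits of phosphatases that reverse the phosphorylation by PERK, the adaptor gene Nck1 (775 bp) and Ddit3, which encodes CHOP (383 bp). Eif2s1, which encodes eIF2alpha, had none assigned.

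In the remaining groups the median widths were between 378.5 and 538 bp. Of 5 genes for substrates and escorts of the site-1 and site-2 proteases, 4 had a near interval: Insig1, which retains SCAP in the ER (1112 bp), the sterol factor genes Srebf2 (405 bp) and Srebf1 (232 bp), and Insig2 (352 bp), while the escort gene Scap had none. Of 11 genes for CNC and small MAF factors and for NFE2L1 processing, 7 had one, with a median of 414 bp: Maff (675 bp), Vcp, the ATPase that extracts NFE2L1 from the ER (578 bp), Ddi2, the protease that cuts it (554 bp), Mafg (414 bp), Nfe2l2, which encodes the oxidative stress factor NRF2 (254 bp), Mafk (174 bp) and Bach1 (106 bp). Of 9 partners of ATF6 and regulators of CREB3, 7 had one, with a median of 538 bp: Nfyc (784 bp) and Nfya (313 bp) of the CCAAT-binding factor NF-Y, Pdia5, a disulfide isomerase that acts on ATF6 (585 bp), Yy1 (560 bp), Hcfc1, a coactivator of CREB3 (538 bp), Crebzf (521 bp) and Gtf2i (202 bp). None of the widths in the last 2 groups reached the widest 10% of genes.

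**Figure D4:**
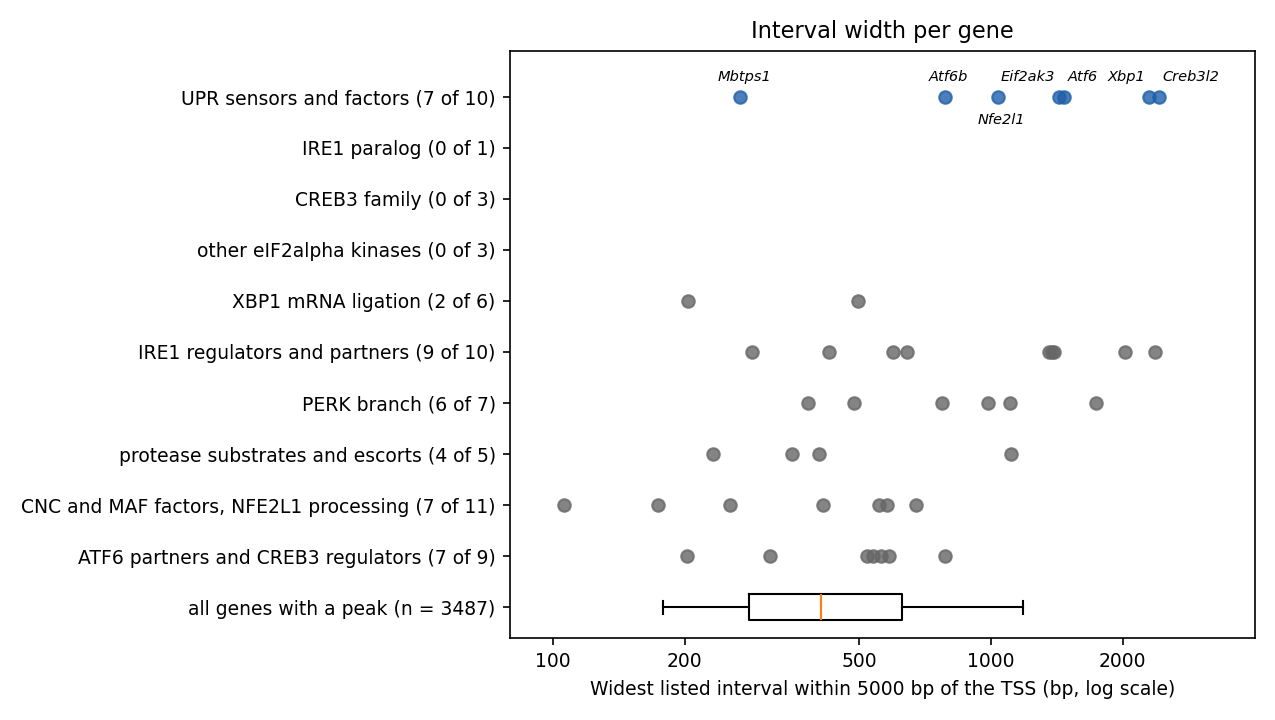
Width of the widest near interval per gene (x axis, bp, log scale) for the 7 of 10 sensor, factor and protease genes that have one, for the groups of relatives and partners, and for all 3487 protein-coding genes with a near interval (box, quartiles with the median; whiskers, percentiles 5 and 95). The counts after each group name are genes with a near interval of all genes in the group. Of the 7 genes in the top row 6 lie right of the median of 410 bp.

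The labelled cell type was checked on marker genes. Near intervals lay at 4 of 10 NK cell genes, Il2rb (853 bp), Prf1 (693 bp), Nfil3 (647 bp) and Gzmb (503 bp), at 1 of 6 B and plasma cell genes, Prdm1 (112 bp), and at none of 4 T cell or 4 myeloid genes, while 15.9% of all protein-coding genes have one. With lists this short, these counts do not tell the cell types apart. The NK markers Ncr1, Klrb1c, Klrk1, Itga2, Eomes and Tbx21 had no near interval. A distal interval was assigned to 6 of the 10 NK cell genes, Ncr1 and Eomes included, and to 1 of the 4 myeloid genes. None of the B and plasma or T cell genes had one, while 2.63% of all protein-coding genes do. For lists this short the distal counts were not tested either. Occupancy is not expression, and the table holds no other measure of purity.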

How the data were processed

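The labels' protocols describe crosslinking, sonication, an XBP1s antibody and paired-end sequencing; per the submitters' processing notes, the tools included MACS2 2.2.7.1, HOMER (4.11.1 and 4.11), Bowtie2 2.4.5, FastQC 0.11.9 and Trim Galore 0.6.7. Per the file headers, the deposited table is HOMER's annotation of 1 set of intervals on mm10. Its start and end positions, distances to the TSS and gene assignments are the authors' own. The score that the authors deposited is 0 in all 4890 rows. No source used here says how libraries were combined, the depth is unknown, and intervals may be parts of peaks shared by several calls (1 to 3413 bp).

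Genes were matched to RefSeq genes of GRCm38.p6, the assembly of mm10, by Entrez number, and all 10 genes and all 55 relatives were found. Width is end minus start plus 1. Promoters are RefSeq's 300-base windows. For genes with a near interval the window whose TSS lay within 1 bp of the authors' was used. Motif and overlap counting were tested on simulated data. Results are descriptions with no test across samples, since no column holds a single library. The genes and lists were chosen with earlier results of these data known; CCAAT alone was searched after the promoters were seen. The text names all 10 genes, relatives with a near interval, and genes with an end within 1000 bp of an interval described; relatives with none were also named, after their values were seen. Python 3.11.15, pandas 2.3.3, NumPy 2.4.6 and matplotlib 3.10.9 were used.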

Additional observations from a re-analysis of the deposited data

How the results depend on the processing

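Of 38 values recomputed under alternatives, 34 did not move, or, for counts, stayed within 1.5 times. Some of the 34 could not move: the count of intervals assigned to the 10 genes, for example, does not use the near window. Among the widest 50% of intervals, 2 genes had a distal interval, not 3, which is at the limit and was counted as unmoved. The count of 7 genes with a near interval was the same with windows of 1000, 3000 or 10000 bp and with intervals of at least 200 bp, and was 6 among the widest 50% of intervals, where 9.03% of protein-coding genes had one. The median width of 1430 bp became 1449.5 bp among the widest 50% and 1037 bp without the widest 1%, which leaves out Creb3l2 and Xbp1. With GACGTG in place of ACGT, 2 promoters had a match, not 5. Without intervals in repeats, an alternative added after seeing the data, 1 gene kept a distal interval, not 3. No value without each replicate could be computed. No paired analysis was possible because the table has no column of a single library.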

Other observations

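Among all 3569 promoter windows that overlap a listed interval, GACGTG was more frequent in windows overlapped by wider intervals. Ordered by the width of the widest interval over them, its share was 10.2% of 900 windows (3 to 308 bp), 15.0% of 886 (309 to 456 bp), 15.5% of 893 (457 to 693 bp) and 21.9% of 890 (695 to 3413 bp). TGACGTCA, the cyclic AMP response element, ran the other way, with 8.67%, 6.21%, 5.04% and 3.82% in the same order. ACGT alone, which both contain, stayed between 52.4% and 57.0%, and the median GC content between 62.0% and 63.7%. The rise was not limited to GACGTG. The share with CCACG was 54.7%, 54.7%, 59.0% and 62.5% from the narrowest to the widest intervals. The share with CCAAT was 37.7%, 39.3%, 41.3% and 42.2%. The full 8-base XBP1 element did not rise steadily, with 1.0%, 2.48%, 1.23% and 3.26%. Matches were counted anywhere in a window, inside or outside the interval. Narrow intervals, down to 3 bp, cover only part of a window, and the covered length was not compared between these groups of widths. The shares therefore do not show that the matches lie inside the intervals. Windows are not independent replicates, and these shares were not tested.

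Of the relatives without an assigned near interval, 3 have an interval within 1000 bp of a RefSeq gene end, and their values had been seen when they were chosen. An end each of Eif2s1 and Ngly1 lies inside intervals of 640 bp (assigned to Atp6v1d) and 876 bp (assigned to Oxsm). An interval of 292 bp, assigned to Eif2ak1 itself, is centred 54246 bp upstream of the TSS the authors used. It lies 30 bp outside the lower-coordinate end of Eif2ak1 as RefSeq draws it. As the interval is upstream of that TSS, this end is the 5' end if the TSS lies within the gene.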
